A study of Mus musculus with 24 samples.

Results

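Levels of 6 genes in mouse MLL-AF9 leukaemia, Gabbr1, Neurl1b, Slc12a4, Prkca, Col6a3 and Reps2, were followed through 24 RNA libraries in 8 groups of 3. They are 6 of the 24046 genes counted, and all 6 were among the 14099 genes that passed the filter on low counts. They were chosen on measured values from 2 of the 4 sets, those made with MxCre. Gabbr1, Neurl1b and Slc12a4 are 3 of the 4 genes called between floxed and control libraries in the MxCre set titled A2. Gabbr1, Prkca, Col6a3 and Reps2 held ranks 2 to 5 by p in the difference between both MxCre comparisons. The MxCre values are therefore given as a description with no test, and tests are given for the VavCre libraries, which took no part in the choice.

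MLL-AF9 is a fusion of a histone methyltransferase with a transcription elongation factor that drives acute myeloid leukaemia. All 8 groups carried it, and marrow was collected from moribund recipients of transplanted cells, with no sort given in the labels. Arid1b and Arid2 encode parts of the SWI/SNF remodelling complexes, which move nucleosomes. In the VavCre Arid1b set, control cells were Arid1b +/+ and floxed cells Arid1b fl/fl, all with VavCre, a recombinase expressed in blood cells from early development. The VavCre Arid2 set had the same layout for Arid2. Both MxCre sets likewise compared MxCre control cells with MxCre fl/fl cells. Their Cre is switched on by interferon, and their hosts, controls included, received pIpC at 12.5 µg per g on 3 occasions from day 21. The title and the cell type description of these sets name different genes, A2 being described as Arid1b and A1b as Arid2, so they are called by title here, with no statement on which gene each set lost. Whether replicates of a group are separate leukaemias is not in the labels, so each p-value measures only how far these samples spread.

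The 6 genes have unrelated products. Gabbr1 encodes the ligand-binding subunit of the GABA-B receptor, which needs Gabbr2 to signal through inhibitory G proteins. Neurl1b encodes a ubiquitin ligase that promotes endocytosis of Notch ligands. Slc12a4 encodes KCC1, a potassium-chloride cotransporter that lets cells lose salt and shrink. Prkca encodes a conventional protein kinase C, activated by calcium and diacylglycerol. Col6a3 encodes a chain of collagen VI, a matrix protein assembled from several chains and made mostly by mesenchymal cells. Reps2, on the X chromosome, encodes an EH-domain protein that takes part in receptor endocytosis. In GENCODE M21 on GRCm38, Gabbr1 lies on chromosome 17 from 37045966 to 37075067 and Neurl1b on the same chromosome from 26414829 to 26446349, both on the plus strand. The others are on the minus strand: Slc12a4 on chromosome 8 from 105943590 to 105966097, Prkca on chromosome 11 from 107933387 to 108343928, Col6a3 on chromosome 1 from 90765923 to 90843971 and Reps2 on chromosome X from 162411954 to 162643649.

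Sequence just upstream of the start is shown for the 2 pairs of genes whose levels ran closest over the libraries, or which each fell in a VavCre set and shared a direction in every set. Neurl1b and Slc12a4 are the first pair, Col6a3 and Reps2 the other. The MxCre libraries that chose the genes take part in this pairing. Each line is 5′ to 3′ on the gene's strand, from the RefSeq promoter table for GRCm38.p6, and ends before the outermost start annotated by RefSeq or GENCODE M21. Capitals mark the GC box, GGGCGG or its reverse complement CCGCCC, overlapping matches included.
Neurl1b, chr17:26414609-26414828, plus strand: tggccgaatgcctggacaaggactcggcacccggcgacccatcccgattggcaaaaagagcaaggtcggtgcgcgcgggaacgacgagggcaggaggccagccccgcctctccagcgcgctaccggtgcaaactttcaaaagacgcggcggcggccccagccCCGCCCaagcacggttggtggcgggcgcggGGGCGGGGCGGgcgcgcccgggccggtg
Slc12a4, chr8:105966150-105966365, minus strand: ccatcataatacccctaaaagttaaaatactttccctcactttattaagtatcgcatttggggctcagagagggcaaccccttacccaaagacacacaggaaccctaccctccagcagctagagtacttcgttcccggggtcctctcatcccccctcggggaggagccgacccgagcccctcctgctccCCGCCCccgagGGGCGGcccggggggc
Col6a3, chr1:90844002-90844221, minus strand: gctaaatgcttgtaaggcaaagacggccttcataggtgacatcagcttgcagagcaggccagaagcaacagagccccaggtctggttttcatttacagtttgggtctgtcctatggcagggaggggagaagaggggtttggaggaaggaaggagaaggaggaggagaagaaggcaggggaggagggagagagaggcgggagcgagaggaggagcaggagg
Reps2, chrX:162643706-162643908, minus strand: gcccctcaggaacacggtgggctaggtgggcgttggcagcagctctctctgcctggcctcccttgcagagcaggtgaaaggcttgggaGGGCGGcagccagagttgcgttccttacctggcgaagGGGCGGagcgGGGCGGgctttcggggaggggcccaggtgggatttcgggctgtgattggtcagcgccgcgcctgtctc
The stretches differ in base composition. Within the full window of 250 bases before the start, CpG pairs numbered 36 for Neurl1b, 13 for Slc12a4, 17 for Reps2 and 3 for Col6a3, against a median of 6 over 32536 mouse promoters. The GC box occurred 4 times in the window of Neurl1b, 3 times in that of Slc12a4 and 4 times in that of Reps2, and the Col6a3 window held no match. Of all promoters, 33.0% held at least 1. The full window runs past the outermost annotated start, where the printed stretches end. The printed stretches of Neurl1b, Slc12a4, Reps2 and Col6a3 hold 30, 10, 13 and 3 CpG pairs and 3, 2, 3 and 0 GC boxes. Gabbr1 and Prkca, not printed, had 16 and 39 CpG pairs and 2 GC boxes each. The letters GGAAG, the core of ETS sites (or CTTCC on the other strand), occurred 3 times in the Col6a3 window, once each in those of Slc12a4 and Prkca, and are present in 64.1% of all promoters. The CpG count thus differed within each pair as well as between the pairs. A second RefSeq start of Reps2 had 2 CpG pairs and no GC box in its window.

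Total counts ran from 12069153 to 38315410 per library, and levels are given as CPM, the count in a library over its TMM-scaled size. Arid1b ranged from 55.7 to 442 CPM and Arid2 from 121 to 547 over the 24 libraries; the labels do not give the deleted exons, so these reads do not check the deletion. Kdm5d, on the Y chromosome, exceeded 10 CPM in 10 libraries, called Y-positive here. They were all 3 controls and no floxed library of the VavCre Arid1b set, and all 3 floxed libraries and no control of the MxCre set titled A2. The VavCre Arid2 set had 1, floxed 2. The MxCre set titled A1b had 3: control 1, control 3 and floxed 1. In the VavCre Arid1b and titled A2 sets, sex and genotype cannot be told apart from the set's own libraries. Summed marker levels ran over the 24 libraries from 2602 to 13609 CPM for leukaemic myeloid genes, from 65.2 to 962 for erythroid and from 8.83 to 115 for megakaryocyte genes. In the titled A2 set 4 marker sums differed without overlap between controls and floxed libraries: T and NK (8.76 to 17.02 against 19.9 to 98.1 CPM), erythroid (96.3 to 144 against 200.1 to 962), B lineage (40.5 to 50.1 against 12.96 to 37.6) and leukaemic myeloid (4489 to 4980 against 5641 to 13609). Their part in that set's values below was not tested. Floxed 3 of the titled A2 set had the highest erythroid sum, and floxed 2 of the titled A1b set stood apart by gene length, with a Spearman correlation of level with exon length of -0.40 across 13410 genes against -0.17 to 0.20 elsewhere.

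**Figure D1:**
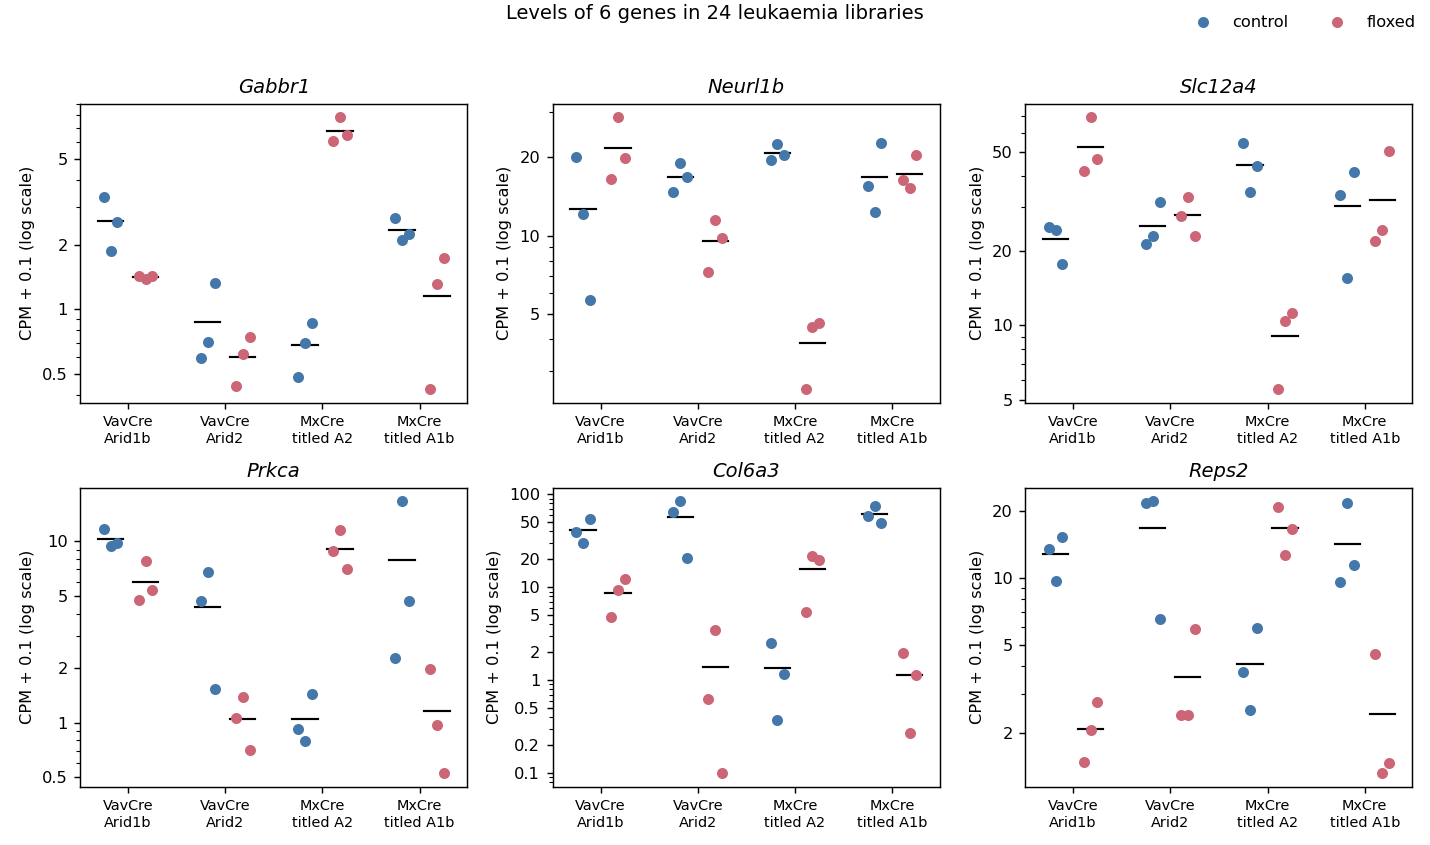
Level of each of the 6 genes in every library, as CPM + 0.1 on a log axis, by set; points are libraries, blue control and red floxed, and bars are means of 3. The floxed libraries of the MxCre set titled A2 stand apart in all 6 panels from their own controls, and in the panels of Prkca, Col6a3 and Reps2 the other 3 sets run the opposite way.

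Across the 4 sets the genes fell into different patterns. Prkca, Col6a3 and Reps2 had lower floxed than control levels in both VavCre sets and in the MxCre set titled A1b, and higher floxed levels in the MxCre set titled A2. For each of these 3 genes, floxed and control libraries did not overlap in either VavCre set. Floxed libraries lay below all controls for 16.1% of all genes in VavCre Arid1b and 18.2% in VavCre Arid2. The 3 genes did not overlap in the MxCre sets either. There 7.18% of all genes were above all controls in titled A2 and 7.55% below in titled A1b. The contrast between the MxCre sets chose these 3 genes, so their separation there adds nothing to the choice. Slc12a4 and Neurl1b were low in the floxed libraries of the titled A2 set alone among the 8 groups, without overlap with the next lowest group. Gabbr1 was highest in those same libraries, also without overlap.

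Col6a3 had the widest range of the 6 genes. In the VavCre Arid2 set the controls 1, 2 and 3 had 64.6, 84.4 and 20.3 CPM, and the floxed libraries 1, 2 and 3 had 0.521, 3.35 and 0. The 0 stands for a library in which 3 counts, the limit that a count of 0 allows, would be 0.0916 CPM, counting error only. Every control thus lay above every floxed library, and Col6a3 fell by 5.44 on the log2 scale (SE 1.10, adjusted p 0.0213, edgeR), from 56.5 ± 32.8 to 1.29 ± 1.80 CPM (mean ± SD, n = 3). In RNA from whole marrow, fewer cells of a type and less RNA per cell cannot be told apart. In the VavCre Arid1b set the controls had 39.1, 29.8 and 53.6 CPM and the floxed libraries 1, 3 and 4 had 4.68, 9.30 and 12.1. The groups did not overlap there either, but the log2 fold change of -2.23 (95% interval -4.22 to -0.25) missed the threshold at an edgeR adjusted p of 0.158. When Y-positive libraries had their own term it was -0.84 (adjusted p 0.778), and a fit to that set alone called it (0.0288). The term was estimated from groups of other sets and cannot separate sex from genotype here. The call in the VavCre Arid2 set was lost without control 1 (adjusted p 0.0520), control 2 (0.0813) or floxed 1 (0.128), and in a fit to that set's 6 libraries alone (0.0626). Without floxed 2 the log2 fold change was -7.66, and without floxed 3 it was -4.86, both called.

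In the MxCre sets, whose values chose the genes, Col6a3 ran in opposite directions. Controls of the titled A2 set had 2.41, 0.277 and 1.05 CPM and its floxed libraries 5.27, 21.7 and 19.5. Controls of the titled A1b set had 59.0, 75.1 and 49.0 CPM and its floxed libraries 1.88, 0.174 and 1.03. That is a log2 fold change of 3.63 in the first set and -5.84 in the other. The first was 2.23 when Y-positive libraries had their own term, which was estimated from groups of other sets. The controls of the sets were not alike: those of the titled A2 set had at most 2.41 CPM, and those of the other 3 sets at least 20.3. By mean, the order of groups ran from the titled A1b controls (61.0 ± 13.1 CPM) over the VavCre Arid2 and VavCre Arid1b controls (40.8 ± 12.02), the titled A2 floxed libraries (15.5 ± 8.91) and the VavCre Arid1b floxed libraries (8.68 ± 3.74) to 3 groups with means of 1.03 to 1.29 CPM. Neighbours in this order overlapped except below the VavCre Arid1b controls and below the VavCre Arid1b floxed libraries.

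Other collagen VI chains did not share that range. On the scale of CPM per kb of exon, group means of Col6a3 ran from 0.0858 to 5.10, those of Col6a1 from 0.135 to 0.381 and those of Col6a2 from 0.0346 to 0.146. Col6a1 and Col6a2 stayed at or below 2.21 CPM in every library, so Col6a3 was above its partner chains in all groups where it was high, as the plot of the 3 chains shows. They had the sign of Col6a3 in each set. Log2 fold changes of Col6a1 and Col6a2 were -0.49 and -0.56 for VavCre Arid1b (adjusted p by edgeR 0.491 and 0.568) and -0.60 and -1.25 for VavCre Arid2 (0.416 and 0.205), none past the threshold. In titled A2 they were 0.71 and 0.93, and in titled A1b -1.08 and -1.81. Both chains were separate in both MxCre sets. Titled A2 controls had 0.876 to 1.23 and 0.386 to 0.819 CPM, and floxed libraries 1.39 to 2.21 and 0.904 to 1.59. Titled A1b controls had 1.003 to 1.47 and 0.613 to 1.63 CPM, and floxed libraries 0.521 to 0.649 and 0.195 to 0.513. Of all genes, 7.18% were likewise above all controls in titled A2 and 7.55% below in titled A1b. In the VavCre sets only Col6a2 in VavCre Arid2 was separate (0.407 to 0.991 against 0.247 to 0.313 CPM), with 18.2% of all genes below.

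**Figure D2:**
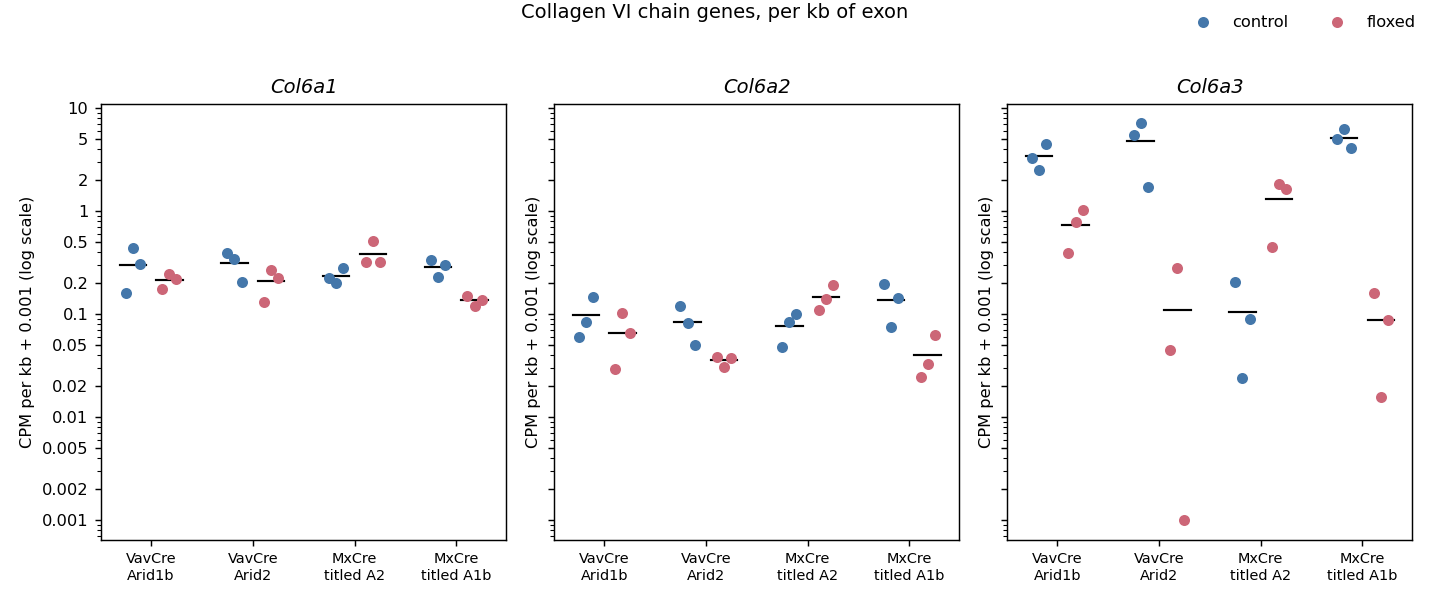
Level per kb of exon of 3 collagen VI chain genes in every library, as CPM per kb + 0.001 on a shared log axis; points are libraries, blue control and red floxed, and bars are means of 3. Col6a3 group means span 0.0858 to 5.10 CPM per kb, while those of Col6a1 and Col6a2 reach 0.381 and 0.146.

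Markers of matrix-forming and vascular cells were measured beside Col6a3. All 16 listed markers were in the file, and their summed level was 131 to 181 CPM in the VavCre Arid2 controls and 142 to 274 in the floxed libraries. In the VavCre Arid1b set it was 99.7 to 402 in controls and 296 to 529 in floxed libraries. In the titled A2 set it was 137 to 292 against 84.6 to 333, and in the titled A1b set 104 to 483 against 62.3 to 229. The sums overlapped between floxed and control in all 4 sets, and Pecam1 (32.4 to 392 CPM) and Pdgfrb (1.91 to 127) made up much of them. Several stromal markers were low: Col3a1 did not exceed 1.25 CPM, Dcn 1.17, Lepr 4.20, Col1a1 8.51 or Col1a2 9.05. Lum was at 0 in 7 and Bglap in 8 of 24 libraries. Cxcl12 ran higher, from 2.56 to 49.6 CPM, with its top value in control 1 of the VavCre Arid2 set. The part of stromal cells in the Col6a3 levels was not tested. Markers of other blood cells did differ in the VavCre Arid2 set: 11 mature neutrophil markers, all that the file held of 12 listed, summed to 4603 to 10329 CPM in controls and 427 to 2740 in floxed libraries. The 11 B lineage markers summed to 31.4 to 34.8 against 3.60 to 6.46 CPM, with Pax5 at 0 in 9 and Dntt at 0 in 15 of the 24 libraries. T and NK markers (12 of 12) summed to 8.25 to 14.99 against 20.7 to 66.4 CPM, and erythroid markers (11 of 12) to 141 to 207 against 72.0 to 100.02. Il7r alone had 62.6 CPM in floxed 2, the library with the T and NK sum of 66.4. That sum was thus mostly Il7r and does not show a rise of the other T and NK genes. The part of these cells in the Col6a3 difference was not tested.

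Reps2 had the same direction as Col6a3 in each set. In the VavCre Arid1b set the controls had 13.4, 9.54 and 15.2 CPM and the floxed libraries 1.37, 1.95 and 2.64. Every control lay well above every floxed library, and Reps2 fell by 2.68 on the log2 scale (SE 0.57, edgeR adjusted p 0.0129), from 12.7 ± 2.90 to 1.99 ± 0.64 CPM. In the VavCre Arid2 set the controls had 21.7, 22.1 and 6.45 CPM and the floxed libraries 2.32, 2.30 and 5.80. Control 3 and floxed 3 lay close together, and the log2 fold change of -2.27 (SE 0.56, 95% interval -3.44 to -1.10) narrowly missed the threshold, at an edgeR adjusted p of 0.0500316. The call in the VavCre Arid1b set was lost without control 1 (adjusted p 0.0609) or floxed 3 (0.0720), and when Y-positive libraries had their own term (0.0864). Reps2 passed in the VavCre Arid2 set without control 3 (0.0250) or floxed 3 (0.0342).

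As a gene of the X chromosome, Reps2 was also set beside the sex of the libraries. Its median was 11.9 CPM in the 10 Y-positive and 3.15 CPM in the 14 Y-negative libraries, with ranges of 2.30 to 20.6 and 1.22 to 22.1. These medians pool libraries over groups. The Y-positive libraries include all VavCre Arid1b controls and all titled A2 floxed libraries, groups in which Reps2 was high. The part of sex in the Reps2 levels was not tested. The highest value of all was in a Y-negative library. Among Y-negative libraries of the VavCre Arid2 set, the 3 controls had 6.45 to 22.1 CPM and the 2 floxed libraries 2.32 and 5.80. In the titled A1b set the Y-negative control had 21.6 CPM and the 2 Y-negative floxed libraries 1.22 and 1.37. The titled A1b values took part in the choice of Reps2 and rest on 1 such control.

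In the MxCre sets, given as description, Reps2 was at 3.67, 2.44 and 5.85 CPM in the titled A2 controls and at 20.6, 12.6 and 16.5 in the floxed libraries. It was at 9.46, 21.6 and 11.3 CPM in the titled A1b controls and at 4.41, 1.22 and 1.37 in the floxed libraries. These are differences of 2.06 and -2.58 on the log2 scale, the latter being -3.45 without floxed 1. Ordered by mean, 4 groups lay above the rest without overlap, the controls of the other 3 sets and the floxed libraries of the titled A2 set, with means of 12.7 to 16.7 CPM. The remaining groups had means of 1.99 to 3.99 CPM and overlapped with their neighbours. Its paralogue Reps1 was far steadier, with group means of 10.8 to 13.5 CPM per kb of exon, against 0.240 to 2.02 for Reps2. Reps1 passed the threshold in neither VavCre set, with log2 fold changes of -0.13 and -0.14 (edgeR adjusted p 0.666 and 0.684).

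Prkca had the same order of floxed and control in every set, but with more spread between controls. VavCre Arid1b controls had 11.5, 9.31 and 9.64 CPM and floxed libraries 4.68, 7.71 and 5.28. VavCre Arid2 controls had 4.56, 6.66 and 1.43 CPM and floxed libraries 0.964, 1.29 and 0.610. Neither difference passed, with log2 fold changes of -0.79 (SE 0.62, edgeR adjusted p 0.472) and -2.14 (SE 0.65, adjusted p 0.0927), although the groups did not overlap. In the titled A2 set the controls had 0.820, 0.692 and 1.35 CPM and the floxed libraries 8.69, 11.4 and 6.93, and in the titled A1b set 2.17, 16.5 and 4.61 against 1.88, 0.868 and 0.427. The log2 fold changes there were 3.24 and -2.85. Control 2 of the titled A1b set, at 16.5 CPM, was the highest of all 24, and all neighbouring groups overlapped in the order by mean.

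Prkca was a minor form of its kinase family in these cells. Its group means were 0.106 to 1.13 CPM per kb of exon, those of the related conventional kinase gene Prkcb 12.8 to 53.6, and those of Prkcd, a kinase activated by diacylglycerol without calcium, 69.6 to 107. Prkcb fell in the VavCre Arid1b set, by 1.84 on the log2 scale (SE 0.44, edgeR adjusted p 0.0199), from 350 ± 57.2 to 97.6 ± 39.3 CPM. In the VavCre Arid2 set its log2 fold change of -1.67 missed the threshold (adjusted p 0.0590), with 410 ± 74.5 CPM in controls and 129 ± 57.0 in floxed libraries. Prkcd had log2 fold changes of 0.61 (0.143) and 0.15 (0.787). Exons of Prkca share 30 bases with Apoh on the other strand, a gene with at most 1 count in any library.

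Slc12a4 rose in the VavCre Arid1b set, and had its lowest levels in the floxed libraries of the titled A2 set. VavCre Arid1b controls had 24.8, 24.1 and 17.6 CPM and floxed libraries 41.9, 69.0 and 46.8. With every floxed library above every control, the log2 fold change was 1.25 (SE 0.37, edgeR adjusted p 0.0473), from 22.1 ± 3.99 to 52.6 ± 14.5 CPM. VavCre Arid2 controls had 21.2, 22.8 and 31.4 CPM and floxed libraries 27.5, 33.0 and 22.8, which overlapped, at a log2 fold change of 0.14 (95% interval -0.61 to 0.90, adjusted p 0.863). The call lay close to the threshold: it was lost without any 1 of the 6 libraries, controls 1, 2 and 3 or floxed 1, 3 and 4, at adjusted p-values of 0.0511 to 0.211, and when Y-positive libraries had their own term (0.139). Its log2 fold change in those fits stayed between 1.00 and 1.56.

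In the titled A2 set Slc12a4 was at 54.3, 34.3 and 43.9 CPM in controls and at 5.43, 10.3 and 11.2 in floxed libraries, a log2 fold change of -2.30. In the titled A1b set, controls had 33.5, 15.5 and 41.7 CPM and floxed libraries 21.9, 24.1 and 50.3, which overlapped, at 0.087. Its exons share 361 bases with Gm16156, an antisense transcript, and no source used here gives the strand setting of the counting. On the scale of CPM per kb of exon, group means were 2.10 to 12.3 for Slc12a4, 0.808 to 1.46 for the related cotransporter gene Slc12a7 and 0.0178 to 0.114 for the sodium-dependent Slc12a2. Slc12a7 had log2 fold changes of 0.43 (edgeR adjusted p 0.583) and -0.79 (0.318) in the VavCre Arid1b and VavCre Arid2 sets, neither past the threshold.

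Neurl1b passed the test in neither VavCre set. VavCre Arid1b controls had 19.98, 11.999 and 5.53 CPM and floxed libraries 16.4, 28.4 and 19.8, overlapping, with floxed higher by 0.79 on the log2 scale (SE 0.36, edgeR adjusted p 0.186). VavCre Arid2 controls had 14.6, 19.0 and 16.6 CPM and floxed libraries 7.14, 11.4 and 9.67. All floxed libraries were below all controls there, at a log2 fold change of -0.83 (SE 0.35, adjusted p 0.205). In the titled A2 set the controls had 19.4, 22.5 and 20.2 CPM and the floxed libraries 2.46, 4.35 and 4.50, and in the titled A1b set 15.4, 12.2 and 22.6 against 16.2, 15.1 and 20.3. The titled A2 floxed libraries, at 3.77 ± 1.14 CPM, were the lowest group, and the other 7 groups had means of 9.40 to 21.5 CPM and overlapped with their neighbours. Mib1, another ligase for Notch ligands, was at 4.45 to 5.57 CPM per kb of exon by group, against 0.596 to 3.40 for Neurl1b and 0.0147 to 0.0700 for its closest relative Neurl1a. Mib1 had log2 fold changes of -0.22 (edgeR adjusted p 0.784) and 0.14 (0.883) in the VavCre sets, and Neurl1a of -1.03 (0.687) and 1.21 (0.595).

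Gabbr1 was the least abundant, with 5 to 210 counts per library. VavCre Arid1b controls had 3.23, 1.77 and 2.44 CPM and floxed libraries 1.32, 1.28 and 1.32, without overlap, at -0.92 on the log2 scale (SE 0.46, edgeR adjusted p 0.230). VavCre Arid2 controls had 0.495, 0.603 and 1.22 CPM and floxed libraries 0.339, 0.521 and 0.641, overlapping, at -0.62 (SE 0.46, adjusted p 0.486). Neither passed the threshold. In the titled A2 set the controls had 0.386, 0.599 and 0.760 CPM and the floxed libraries 5.98, 7.73 and 6.38, a log2 fold change of 3.52, and in the titled A1b set 2.56, 2.01 and 2.14 against 0.324, 1.22 and 1.62, a log2 fold change of -1.09. Gabbr2, the partner that the receptor needs, was at 0 to 0.339 CPM over the 24 libraries and did not pass the filter on low counts. The highest Gabbr1 level in a Y-negative library was 2.01 CPM, and the median was 2.50 in Y-positive and 0.988 in Y-negative libraries. These medians pool libraries over groups, and all 3 titled A2 floxed libraries, where Gabbr1 was highest, were Y-positive. When Y-positive libraries had their own term the log2 fold change of Gabbr1 in that set was 3.96. The term was estimated from groups of other sets, so this value cannot separate sex from genotype there.

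**Figure D3:**
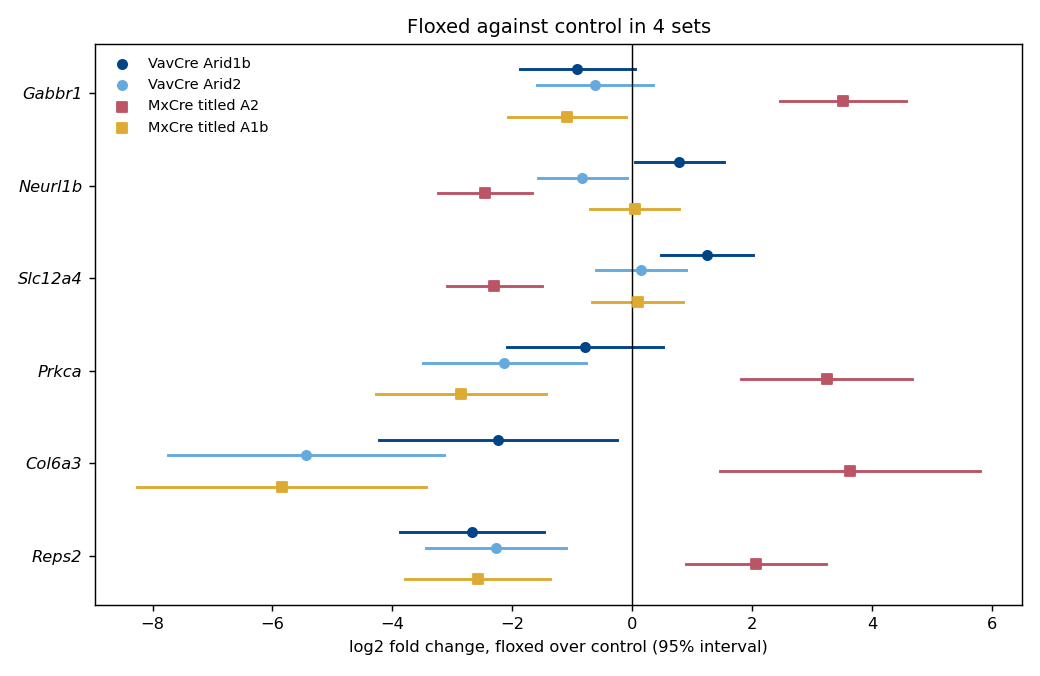
Log2 fold change, floxed over control, of each gene in each of the 4 sets, with 95% intervals from the edgeR fit; circles are VavCre sets, squares the MxCre sets that chose the genes. For Gabbr1, Prkca, Col6a3 and Reps2 the titled A2 value lies above 0 and the other 3 below, and for Slc12a4 the titled A2 value of -2.30 stands against 1.25 in the VavCre Arid1b set.

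Counted over the 6 genes, 1 was called higher and 1 lower in the VavCre Arid1b set, where 6.57% of all tested genes were called (3.52% higher and 3.05% lower). The VavCre Arid2 set had 1 called lower, against 1.31% of all genes called and 1.06% called lower. The 2 groups were separate for 5 of 6 genes in the VavCre Arid1b set, 1 with floxed libraries above and 4 below their controls, against 32.4% of all genes (16.3% above and 16.1% below). They were separate for 4 of 6 in the VavCre Arid2 set, all with floxed libraries below, against 36.1% of all genes (17.9% above and 18.2% below). The median log2 fold change of the 6 was -0.85 and -1.48, beside -0.058 and 0.0044 for all tested genes. In the MxCre set titled A2, used by the choice, 3 of 6 were called against 0.0284% of all genes, 1 higher and 2 lower against 0.0142% each, a count that the choice itself fixed. Its floxed libraries lay above all controls for 4 of the 6 and below for 2, with 7.18% and 7.78% of all genes. The choice used these libraries, so this count adds nothing to it. To place that threshold, Slc12a4 lay just inside, at an edgeR adjusted p of 0.0298, and just outside Habp4 and Pim1, both at 0.0510. The Slc12a4 value is the one that chose it and is no test of it. The titled A1b set had 1 called gene, Gla, 0.00709% of those tested, at an adjusted p of 0.0312, and the nearest outside was Pak1 at 0.0591. There 4 of the 6 had floxed libraries below all controls, with 7.55% of all genes below and 6.55% above (14.1% together); they are the 4 chosen on a contrast that uses these libraries, so the count adds nothing to the choice. In the difference between both MxCre comparisons 0.192% of all genes were called (0.121% higher and 0.0709% lower in the titled A2 set), the 4 genes of that choice included.

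No gene of the 6 passed the test of the difference between the VavCre Arid1b and VavCre Arid2 comparisons with edgeR, where 0.0142% of all genes did. DESeq2 also called 0 of the 6, limma with sample weights called 2, and 3 had an unadjusted p under 0.05, as did 9.85% of all genes. The difference was 1.62 on the log2 scale for Neurl1b (SE 0.50, edgeR adjusted p 0.236), 3.21 for Col6a3 (SE 1.33, 0.402) and 1.10 for Slc12a4 (SE 0.51, 0.493). For Reps2 it was -0.41 (95% interval -2.003 to 1.18). A difference that misses the threshold does not show that both sets were alike. Between the VavCre controls, edgeR called 0 of the 6 (0.0426% of all genes called), DESeq2 1 and limma with sample weights 2, with 1 at an unadjusted p under 0.05 against 12.5% of all genes. Gabbr1 differed most there, at 2.48 ± 0.73 CPM in the VavCre Arid1b controls and 0.773 ± 0.392 in the VavCre Arid2 controls, a log2 difference of 1.68 (SE 0.46, edgeR adjusted p 0.167).

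The 6 genes also differed in what ran beside them over the 24 libraries. Pearson correlations of log2 CPM are given as a description, with no p, since the libraries share sets, genotype and sex. The MxCre libraries, whose values chose the 6 genes, are among the 24, so the choice itself takes part in these correlations. Within the 6, Neurl1b and Slc12a4 had r = 0.87, Prkca and Col6a3 0.79, and Col6a3 and Reps2 0.69. Slc12a4 and Reps2 ran opposite, at -0.65. The plot of both pairs places the titled A2 floxed libraries at the low end for Neurl1b and Slc12a4.

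**Figure D4:**
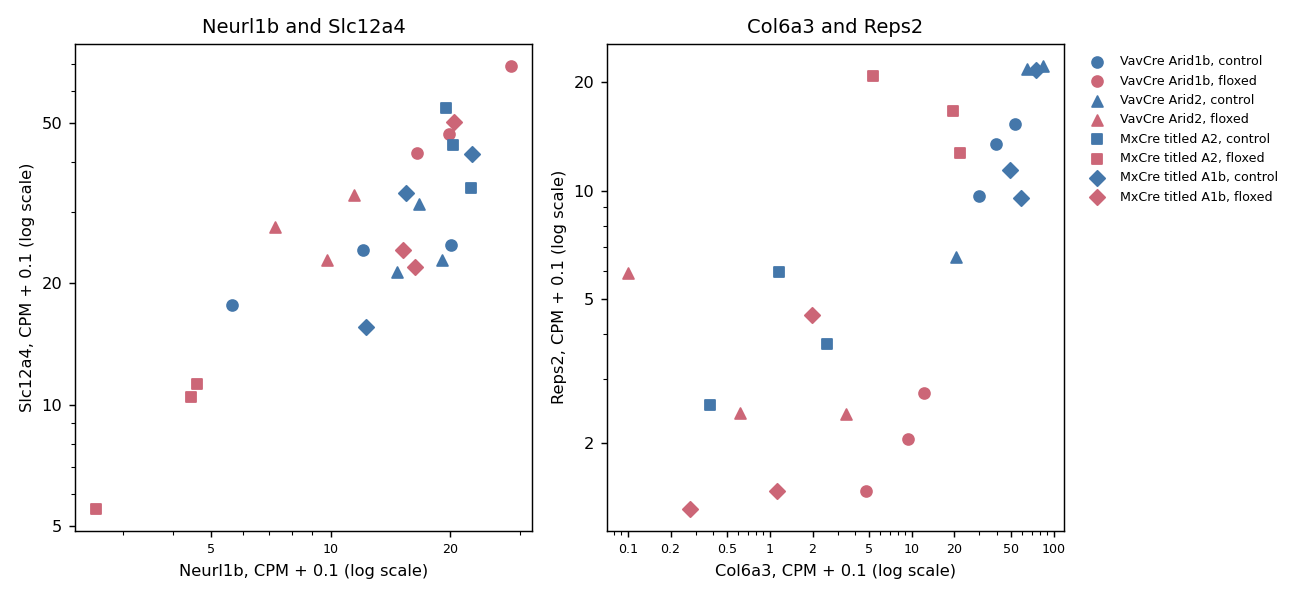
Levels of Slc12a4 against Neurl1b and of Reps2 against Col6a3 in 24 libraries, as CPM + 0.1 on log axes; shapes are sets, blue control and red floxed. The titled A2 floxed libraries are the 3 lowest points for Slc12a4 (5.43 to 11.2 CPM) and lie among the controls of other sets for Reps2.

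Among 10981 genes with a mean of at least 2 CPM, the pattern of Col6a3 was most like that of Mlph (r = 0.93), which encodes melanophilin, a linker of Rab27a vesicles to myosin, and then Paqr8 (0.83) and Ell2 (0.80). Mlph ranged from 0.0260 to 28.6 CPM. For Prkca the order was Hnf4a (0.84), a nuclear receptor known from liver that reached 145 CPM here, Mlph (0.77) and Slc22a3 (0.77), an organic cation transporter gene. Reps2 was closest to Tmem2 (0.93), which encodes a cell surface hyaluronidase, then to Tgm1 (0.90), a transglutaminase gene, and Bcorl1 (0.90), a corepressor gene that is also X-linked. Icosl, the ligand of the T cell costimulator ICOS, and Ece1, which encodes a protease that activates endothelin, were among the first 3 for both Neurl1b (0.83 and 0.81) and Slc12a4 (0.89 and 0.88). The third for Neurl1b was Tagap (0.82), and the first for Slc12a4 was Inf2 (0.90), which encodes a formin. Gabbr1 was closest to Cish (0.75), an inhibitor of cytokine signalling and the fourth called gene of the titled A2 set, to Uty (0.67), on the Y chromosome, and to Pim1 (0.66), a kinase gene induced by the same cytokine pathway. Gabbr1, Cish, Uty and Pim1 were thus placed together by a measure in which the Y-positive titled A2 floxed libraries take part.

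For each gene, a list of its pathway was examined in the VavCre sets, the gene itself left out. Summed T and NK markers also differed in the VavCre Arid1b set, at 15.6 to 25.9 CPM in controls and 33.6 to 59.1 in floxed libraries. Mature neutrophil markers overlapped, at 660 to 2104 and 329 to 2366. The T and NK sum does not show how many of its genes were higher. Over the 24 libraries Il7r ran from 0.592 to 62.6 CPM, and no other gene of that list exceeded the 17.2 CPM of Lck. The part of these cells in the calls of the pathway lists was not tested. Of 38 genes of GABA receptors and GABA metabolism, 10 passed the filter on low counts. In the VavCre Arid1b set 2 of them fell and 0 rose by edgeR: Slc6a13, a GABA transporter, from 11.1 ± 4.80 to 2.78 ± 0.99 CPM (log2 -1.997, adjusted p 0.0299), and Aldh5a1, which completes GABA breakdown, from 8.60 ± 5.24 to 1.63 ± 0.59 (log2 -2.39, 0.0130). Slc6a13 also fell in the VavCre Arid2 set, from 11.9 ± 2.95 to 1.81 ± 0.25 CPM (log2 -2.71, adjusted p 0.0181), the 1 call of the list by edgeR, where DESeq2 called 2 and limma with sample weights 4. The edgeR calls are 20% of the 10 in the VavCre Arid1b and 10% in the VavCre Arid2 set, against 6.57% and 1.31% of all genes. For the VavCre Arid2 set DESeq2 and limma called 20% and 40% of the 10, beside 1095 and 4679 of all 14099 genes. The median log2 fold change of the list was -0.999 and -0.13, against -0.058 and 0.0044 for all tested genes.

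Of 42 Notch pathway genes 35 were tested, and edgeR called 5.71% in the VavCre Arid1b set, against 6.57% of all genes. All of these calls, 2 genes, rose. They were Rbpj, the DNA-binding factor of the pathway, from 59.6 ± 2.74 to 126 ± 18.8 CPM (log2 1.08, edgeR adjusted p 0.0100), and Dtx2, a ubiquitin ligase that binds Notch, from 18.4 ± 3.33 to 40.3 ± 4.73 (log2 1.13, 0.0285). The list had a median log2 fold change of 0.13 there and of 0.26 in the VavCre Arid2 set. Of 25 genes of chloride cotransport and cell volume 21 were tested, and 1 rose in the VavCre Arid1b set: Lrrc8a, a subunit of the volume-regulated anion channel, from 13.8 ± 1.19 to 33.0 ± 9.12 CPM (log2 1.26, adjusted p 0.0108). The list medians were 0.25 and 0.080. For the VavCre Arid2 set edgeR called 0 of the 35 and 0 of the 21, with 7 and 5 at an unadjusted p under 0.05. DESeq2 called 2 and 3 there, and limma with sample weights 14 and 10.

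Of 39 tested protein kinase C and diacylglycerol genes, 3 rose and 2 fell in the VavCre Arid1b set by edgeR, 7.69% and 5.13% against 3.52% and 3.05% of all genes. Prkch, a kinase of the same class as Prkcd, rose from 3.85 ± 1.006 to 31.2 ± 7.38 CPM (log2 3.02, edgeR adjusted p 0.0192). Itpr1, a calcium release channel, rose from 133 ± 28.7 to 308 ± 39.0 CPM (log2 1.22, 0.0130). The third was Dgki, a diacylglycerol kinase, at 0 to 0.108 CPM in controls and 0.331 to 9.48 in floxed libraries. Beside Prkcb, Prkci, an atypical kinase, fell by 1.12 on the log2 scale (adjusted p 0.0158); it is named because it completes the count, after its value was seen. Of the 39, edgeR called 0 in the VavCre Arid2 set, with 12 at an unadjusted p under 0.05, 30.8% against 19.5% of all genes. DESeq2 called 5 there and limma with sample weights 16, 12.8% and 41.0% of the list, beside 1095 and 4679 of all 14099 genes. The list medians were 0.21 and 0.15.

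The matrix genes had lower medians in both VavCre sets, -0.56 and -0.55 over 31 tested genes of 35. In the VavCre Arid1b set 1 was called higher and 1 lower, 6.45% against 6.57% of all genes. Fn1, which encodes fibronectin, rose from 90.6 ± 82.4 to 1967 ± 1301 CPM (log2 4.44, edgeR adjusted p 0.0274), and Mmp2, a gelatinase gene, fell from 1.11 ± 0.49 to 0.236 ± 0.083 (log2 -2.22, 0.0457). In the VavCre Arid2 set Mmp9, a gelatinase of neutrophil granules that is also in the neutrophil marker list, fell from 249.96 ± 181 to 8.13 ± 5.05 CPM (log2 -4.94, adjusted p 0.0192), the 1 call of the list by edgeR, where DESeq2 called 4 and limma with sample weights 16. Those calls are 3.23%, 12.9% and 51.6% of the 31. Over all genes edgeR called 1.31% there, DESeq2 1095 of 14099 and limma 4679. Of 29 tested genes of Ral signalling and EH-domain endocytosis, 2 rose and 1 fell in the VavCre Arid1b set, 10.3% against 6.57% of all genes. Ralgds, an exchange factor of Ral, rose from 12.8 ± 1.46 to 37.3 ± 9.63 CPM (log2 1.55, adjusted p 0.0300) and Epn1, an endocytic adaptor, from 193 ± 7.49 to 285 ± 22.1 (log2 0.56, 0.0439). Rgl3, another exchange factor, fell from 1.504 ± 1.22 to 0.0938 ± 0.115 CPM (0.0394). The list medians were 0.15 and 0.034. In the VavCre Arid2 set edgeR called 0 of the 29, with 3 at an unadjusted p under 0.05, 10.3% against 19.5% of all genes. DESeq2 called 1 there and limma with sample weights 11, 3.45% and 37.9% of the list.

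Over the 165 genes of all 6 lists, 9 were called higher and 6 lower in the VavCre Arid1b set, 9.09% against 6.57% of all genes, and 2 lower in the VavCre Arid2 set, 1.21% against 1.31% of all genes. In both MxCre sets edgeR called 0 of the 165, beside 27 and 28 genes at an unadjusted p under 0.05 in the titled A2 and titled A1b sets, 16.4% and 16.97% against 10.6% and 17.4% of all genes. DESeq2 called 2 and 5 of them, 1.21% and 3.03%, and limma with sample weights 21 and 0, 12.7% and 0%. The counts of these tools over all genes are given with the dependence on the processing below.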

How the data were processed

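The values analysed are the deposited whole-number read counts per gene symbol, 1 column for each of 24 libraries, with 0 columns unused. Per the labels' protocols, polyadenylated RNA was taken from TRIzol extracts and made into strand-keeping libraries. STAR and the build mm10 are named per the submitters' processing notes; counter, annotation, strand setting and versions are each not given in the sources used. Libraries were grouped by title.

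Genes were kept with filterByExpr (minimum count 10, minimum total 15), which left 14099 of 24046. A quasi-likelihood model in edgeR 4.0.16 (R 4.3.3), with robust estimation and TMM-scaled library sizes, was fitted to all 24 libraries with 8 group means and 16 residual degrees of freedom. The test was also run on simulated counts with known changes, with levels and spread taken from the fit to these libraries. P-values were adjusted by Benjamini-Hochberg over all tested genes of a contrast and called under 0.05. No control library is shared between sets. Totals of 12069153 to 38315410 counts per library set the precision of low genes.

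The 6 genes, the lists, tests and alternatives were chosen with earlier results of these data known. Named genes were the 6, their fixed family members and partners (2 of which are not reported here), per gene the 3 genes with the highest Pearson correlation of log2 CPM (prior count 2) over 24 libraries, per pathway list and VavCre contrast up to 4 called genes by size or the 1 with the smallest p, and the genes next to the MxCre thresholds. Of the marker lists used (stromal and endothelial, erythroid, mature neutrophil, B lineage, T and NK, megakaryocyte and leukaemic myeloid genes), summed CPM was taken. Alternatives were DESeq2 1.42.0, limma 3.58.1 voom with sample weights, relative log expression scaling, no filter, a fit to the set's own libraries, a Y-positive term, a replicate block, the fit without 3 libraries and the omission of each library.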

Additional observations from a re-analysis of the deposited data

Results flagged for a closer look

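These differences between the log2 fold changes of 2 sets stand out because every floxed library lay on 1 side of every control in 1 set and on the opposite side in the other. Each involves the MxCre set titled A2, whose values took part in the choice of genes. Differences between titled A2 and titled A1b are those of the contrast that chose Gabbr1, Prkca, Col6a3 and Reps2, and are given as a description. Differences between a VavCre set and titled A2 were not tested. For Gabbr1 the VavCre Arid1b value minus the titled A2 value was -4.44, and the titled A2 value minus the titled A1b value was 4.61. For Slc12a4 the VavCre Arid1b minus titled A2 difference was 3.55. Prkca had -4.03 for VavCre Arid1b minus titled A2, -5.38 for VavCre Arid2 minus titled A2 and 6.10 for titled A2 minus titled A1b. In the same order Col6a3 had -5.86, -9.07 and 9.47, and Reps2 had -4.74, -4.32 and 4.64.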

How the results depend on the processing

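The edgeR fit called 926 genes in the VavCre Arid1b set, 185 in the VavCre Arid2 set, 4 in titled A2 and 1 in titled A1b; among the 6 genes it called 2 and 1 in the VavCre sets. In the same order of sets, DESeq2 called 1815, 1095, 196 and 478 genes, limma voom with sample weights 4189, 4679, 1202 and 12, and a fit in which Y-positive libraries had their own term 101, 104, 0 and 2. Without 3 libraries (VavCre Arid1b control 3, titled A2 floxed 3 and titled A1b floxed 2) the last 3 sets had 1144, 33 and 8. With no filter on low counts the VavCre Arid2 set had 103 and titled A1b 0, and in fits to the libraries of 1 set they had 1030 and 0. Omitting 1 library gave 62 to 734, 15 to 227, 0 to 18 and 0 to 1535 genes, the last without floxed 1 of titled A1b. Of the 6 genes in the VavCre Arid1b set, 1 was called with no filter, 4 by limma, 0 with the Y-positive term, 1 without the 3 libraries and 0 to 1 on omission of a library. In the VavCre Arid2 set DESeq2 called 3, limma 4, the fit to its own libraries 0, the fit without the 3 libraries 2 and the omissions 0 to 2. For the difference of both VavCre contrasts limma called 2, and between the VavCre controls DESeq2 called 1 and limma 2, all other fits 0. The cause of these changes was not tested. Each omission also left fewer libraries, and the part of that was not tested either.

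Numbers of replicates are shared between floxed and control libraries, but they do not pair them: same-numbered libraries had correlations of -0.22 to 0.26, and 2, 0 and 2 of 6 libraries were closest to their own number in the VavCre Arid2, titled A2 and titled A1b sets. With the replicate block 1 gene was called in the VavCre Arid1b set, 3 in the VavCre Arid2 set and 1 in titled A2, and 0 of the 6 genes in either VavCre set; the comparison of controls could not be fitted with it.

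Signs turned only for small values. By limma the Reps2 difference between VavCre contrasts was 0.40 and the Slc12a4 difference between VavCre controls 0.031. On omission of 1 library these ran from -0.67 to 0.17 and from -0.29 to 0.0088. In titled A1b Neurl1b ran from -0.14 to 0.32 and Slc12a4 from -0.39 to 0.39. The low counts of Gabbr1 limit what its VavCre comparisons can show.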
